A study of Mus musculus with 10 samples.

Results

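Genes that retinal ganglion cells use for their axonal skeleton or that are used to recognise these cells, 10 in number, were followed through 10 RNA sequencing libraries of mouse retina. The genes encode the neurofilament subunits Nefl, Nefm, Nefh and Ina, the synuclein Sncg, the surface proteins Thy1 and Jam2, the RNA-binding proteins Rbpms and Rbpms2, and the glutamate transporter Slc17a6. They were taken by symbol and are 10 of the 23258 gene symbols in the table, and all 10 passed the filter that admitted 11744 genes to the test (at least 1 TPM in at least 5 libraries). TPM is the deposited unit of transcript abundance, a level scaled for transcript length and for the library total. Levels of different genes are set side by side on that scale, though amplification of the cDNA can leave them dependent on transcript length.

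The libraries fell into 2 groups of 5. The knockout group came from Satb1-/- mice carrying the Hb9-GFP reporter and the wild-type group from Hb9-GFP mice with intact Satb1. Both groups were on the C57BL/6 strain at postnatal day 6, and each library was made from about 1000 GFP-positive cells purified by flow cytometry. The replicates of a genotype came from separate litters, and amplified cDNA was sequenced from a single end. The reporter is driven by Hb9 (Mnx1) sequences and in the retina is known to mark a type of ON-OFF direction-selective ganglion cell, so the values describe those sorted cells and not ganglion cells in general. The sources used here do not give which Satb1 allele was used, or whether several animals of a litter were pooled. Satb1 encodes a chromatin organizer, and the comparison addresses which transcripts differ when it is missing.

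Neurofilaments are the intermediate filaments of large axons. Nefl forms the core of the filament, Nefm and Nefh add long side arms that space the filaments, and Ina (alpha-internexin) joins them and is known to appear early in development, while Nefh is known to accumulate late as axons mature. Ganglion cells send the longest axons of the retina and carry neurofilament in quantity, and Sncg, Thy1, Rbpms and Slc17a6 are commonly used to tell them from other retinal cells. Jam2 differs from these in that it is known as the marker of 1 ganglion cell subtype and is also made by vascular endothelium.

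Several of these genes have close relatives, and a few short stretches show how far reads can be told apart. The first set is a 45-base coding stretch at the conserved end of the filament rod, shown because, of 485 stretches of this length in the Nefl coding sequence, it had the fewest differences from Nefm, Ina and Prph together (16, against a median of 56). It is written from Nefl, with bases that differ from Nefl in capitals in the others (mouse build GRCm38, which is mm10, with GENCODE transcripts). Prph, the related subunit peripherin, is included for comparison. Nefl lies on the plus strand at chr14:68086040-68086084, Nefm on the minus strand at chr14:68122835-68122879, Ina on the plus strand at chr19:47021899-47021943 and Prph on the plus strand at chr15:99057393-99057437.
Nefl: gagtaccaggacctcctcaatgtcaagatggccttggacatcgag
Nefm: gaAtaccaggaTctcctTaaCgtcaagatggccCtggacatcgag
Ina: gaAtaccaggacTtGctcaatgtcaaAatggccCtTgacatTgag
Prph: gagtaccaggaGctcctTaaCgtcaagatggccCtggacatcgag
Nefm differed from Nefl at 5 of these 45 bases, Ina at 7 and Prph at 4. Even in this stretch each of these subunits carried its own bases. No 50-base window of the Nefm transcript with the longest coding sequence, or of the Nefh transcript, occurred in another annotated gene, and a second Nefm transcript was the exception.

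Nefl and Nefm are neighbours on chromosome 14, and that second Nefm transcript, Nefm-202, runs across the start of Nefl on the opposite strand. The overlap of their exons is 1108 bases (chr14:68083863-68084970). As a result 31.8% of the 50-base windows of the Nefl transcript also occur, read from the other strand, in an annotated Nefm transcript. The 30 bases at the Nefl start codon (chr14:68083963-68083992) are shown on both strands, with the start codon and its complement in capitals.
Nefl-201, plus strand: ATGagttcgttcggctacgatccgtacttt
Nefm-202, minus strand: aaagtacggatcgtagccgaacgaactCAT
Whether counting used strand is not given in the sources used here. Within this overlap reads of Nefl and Nefm may not have been separable, and the division of reads between them is uncertain to that extent. Ina has a smaller overlap of 456 bases with an exon of Nt5c2 on the opposite strand (chr19:47014698-47015153), which covers 12.8% of its windows. Nt5c2 itself stood at 5.52 to 19.0 TPM in knockout and 8.35 to 30.3 TPM in wild-type libraries, far below Ina.

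Rbpms and Rbpms2 shared no 50-base window. Rbpms2 shared 16.6% of its windows with the predicted gene Gm3470, whose symbol is not among those analysed. How reads from these windows were assigned is not known, so the Rbpms2 level is uncertain to that extent.

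All 10 are protein-coding genes. On GRCm38 Nefl spans chr14:68083863-68089095 (plus strand), Nefm chr14:68082590-68124846 (minus), Nefh chr11:4938754-4948064 (minus) and Ina chr19:47014698-47025327 (plus). Sncg spans chr14:34370274-34374789 (minus), Thy1 chr9:44043384-44048579 (plus) and Rbpms chr8:33782643-33929863 (minus). Rbpms2 spans chr9:65629648-65660528 (plus), Slc17a6 chr7:51622006-51671119 (plus) and Jam2 chr16:84774123-84825928 (plus).

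Satb1 itself was measured first. It stood at 170.4, 126, 83.1, 34.9 and 24.1 TPM in knockout 1 to 5 and at 304, 189, 414, 132 and 38.6 TPM in wild-type 1 to 5. The ranges overlapped, the difference was -1.25 (SE 0.71) on the log2(TPM + 1) scale, and a two-sided exact permutation test, which divides the 10 libraries into 5 and 5 in every possible way, gave p = 0.135 (n = 5 each). Satb1 transcript thus remained listed in all 5 knockout libraries, and TPM cannot show which exons it comes from.

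A set of 3 libraries stood apart from the rest. Knockout 4, knockout 5 and wild-type 5 had scores of 88.0, 149 and 102 on the first principal component (32.9% of the variance), against at most -14.2 in the other 7 libraries, and 84 ribosomal protein genes took 12.2% to 13.8% of their TPM, against 3.92% to 8.06% in the others. Wild-type 4 was separate on the second component (13.0% of the variance). Between 10073 and 12555 genes per library reached 1 TPM. Markers of other cell types were present in both genotypes and varied between libraries: the summed TPM of 14 rod genes was 35.5 to 527 in knockout and 16.5 to 604 in wild-type, and that of 11 microglia and macrophage genes 76.2 to 3101 in knockout and 7.01 to 2291 in wild-type. The depth of each library is unknown, since TPM does not keep it. In bulk samples fewer cells of a type and less RNA per cell cannot be told apart, and this holds for every level below.

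The 10 genes spanned a wide range of levels. Geometric means over the 10 libraries were 12598 TPM for Nefl, 1603 for Nefm, 1438 for Sncg, 1198 for Thy1, 1025 for Rbpms, 893 for Ina, 399.9 for Rbpms2, 255 for Slc17a6, 28.1 for Nefh and 16.5 for Jam2. Nefl was above Nefm in 10 of 10 libraries, Ina above Rbpms2 in 9 and Slc17a6 above Nefh in 9. The genes from Nefm down to Ina were close: Nefm exceeded Sncg in 6 of 10 libraries, Sncg exceeded Thy1 in 7, Thy1 exceeded Rbpms in 5 and Rbpms exceeded Ina in 5, so their order did not hold from library to library. Rbpms2 and Slc17a6 (5 of 10) and Nefh and Jam2 (7 of 10) were likewise not ordered beyond the spread between libraries.

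Against all 11744 tested genes, 8 of the 10 were among the most abundant transcripts, with mean TPM at the percentiles 99.97 for Nefl, 99.6 for Nefm, 99.5 for Sncg, 99.2 for Thy1, 99.1 for Rbpms, 98.9 for Ina, 97.4 for Rbpms2 and 96.8 for Slc17a6. Nefh was at 75.4 and Jam2 at 50.8, in the middle of all tested genes. Together the 10 genes made up 1.62%, 2.17%, 9.92%, 1.86% and 1.32% of the TPM in knockout 1 to 5, against 1.50% to 2.87% in the wild-type libraries. Knockout 3 was far above all others, and Nefl alone made up 9.44% of it.

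**Figure D1:**
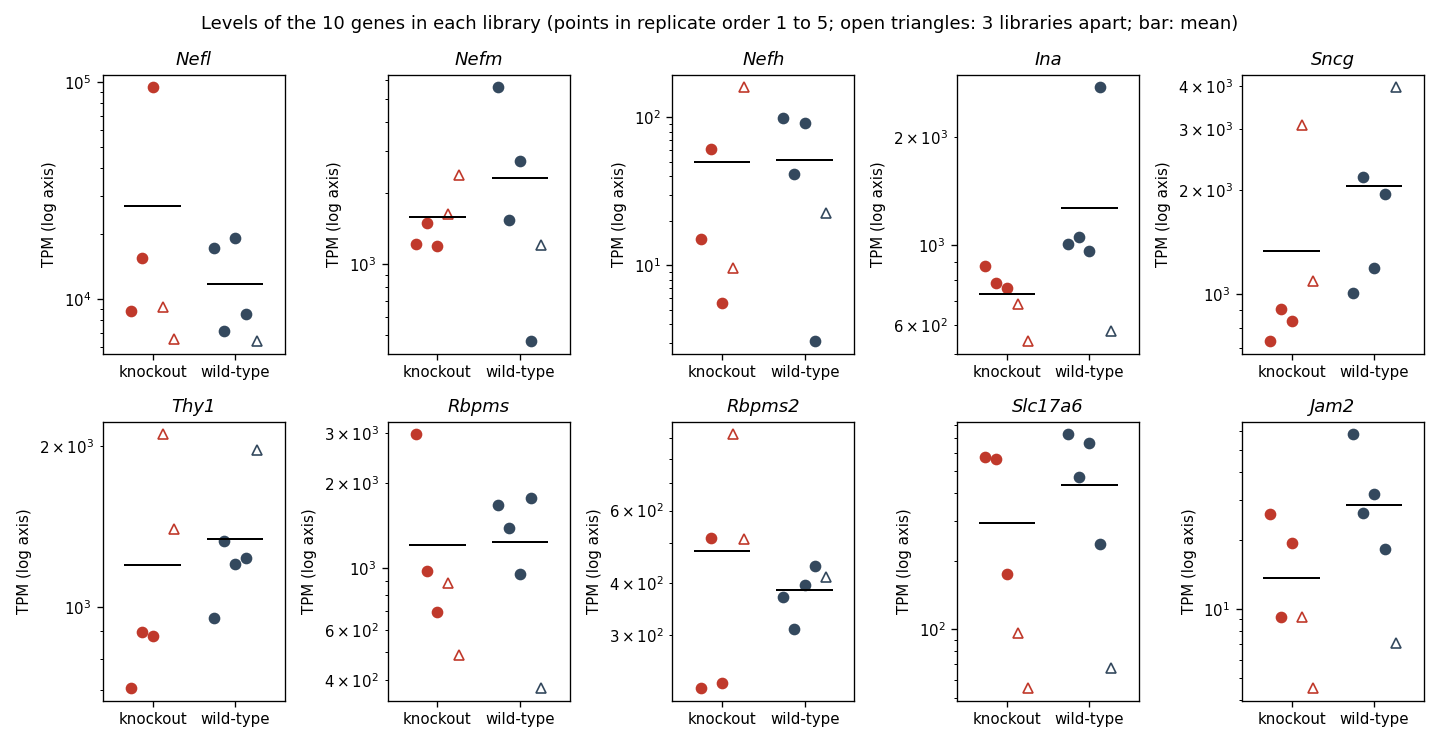
TPM of each of the 10 genes (log axis, 1 panel per gene) in the 5 knockout libraries at left and the 5 wild-type libraries at right, with points in replicate order and a bar at the mean. Open triangles are knockout 4, knockout 5 and wild-type 5, the 3 libraries apart; no gene separates the genotypes, Nefl in knockout 3 reaches 94381 TPM, and Slc17a6 is lowest in the open triangles.

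None of the 10 genes passed the test between genotypes. In limma, a linear model fitted across all tested genes, 0 of 10 had a Benjamini-Hochberg adjusted p under 0.05, where the background was 0% of tested genes called, and each of the 10 had an adjusted p of 0.992. At an unadjusted p under 0.05 there were also 0 of 10, against 3.31% of tested genes. The genotypes overlapped in each of the 10 genes (0 of 10 without overlap, against 0.502% of tested genes). On the log2 scale 8 of the 10 had a negative and 2 a positive difference, and a negative one was seen in 67.4% of tested genes; the median difference was -0.29 for the 10 and -0.31 for all tested genes.

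How many of the 10 were lower depended on the scaling. Median centring of the libraries, which shifts all genes by the same amount, moved the median of all tested genes to 0.07, and 6 of the 10 were then higher and 4 lower. Relative to the median of all tested genes, 5 were above and 5 below in both fits. Under quantile normalization that median was -0.04, and 2 of the 10 were higher and 8 lower (median -0.46). In the unscaled fit with genotype as the only term, standard errors were 0.49 to 0.96 against a median of 0.78 over all tested genes. Each 95% interval of that fit reached more than 1 log2 unit to either side of its estimate, so a difference of that size could have been missed.

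**Figure D2:**
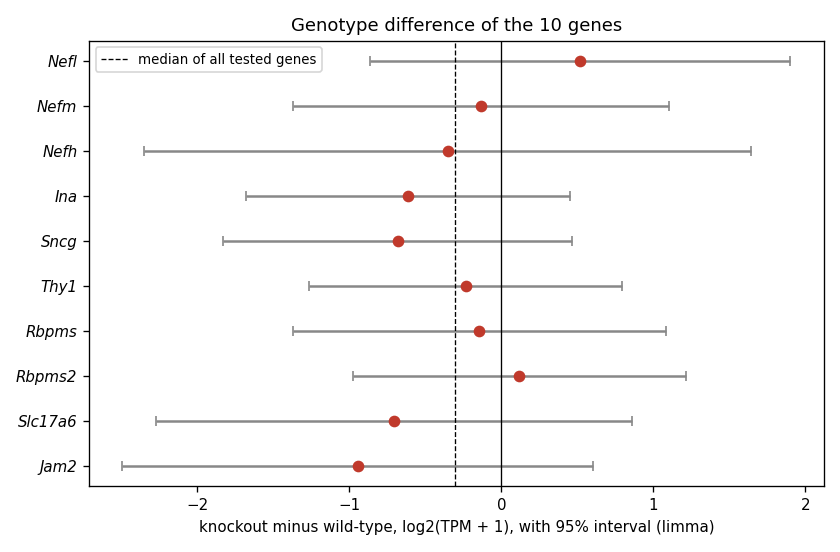
Knockout minus wild-type difference of each of the 10 genes on the log2(TPM + 1) scale (points), with the 95% interval from limma (bars). The dashed line marks the median of all tested genes, -0.31; every interval crosses 0, from Nefl at 0.52 to Jam2 at -0.94.

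Nefl, the core subunit of the filament, was the most abundant of the 10 in every library and ranked between place 1 and place 18 of all genes in each. It stood at 8837, 15506, 94381, 9189 and 6567 TPM in knockout 1 to 5 and at 17244, 7131, 19151, 8529 and 6422 TPM in wild-type 1 to 5. Apart from knockout 3 the genotypes covered the same range. In knockout 3 Nefl was the most abundant gene of the library. Means were 26896 ± 37871 TPM in knockout and 11695 ± 6022 TPM in wild-type (SD, n = 5 each), with a log2 difference of 0.52 (SE 0.66, 95% interval -0.86 to 1.90) and p = 0.603 by the exact permutation test. Without knockout 3 the difference was -0.14.

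Nefm, the middle subunit with a phosphorylated side arm, was the second filament gene. Its levels were 1221, 1489.6, 1197, 1626 and 2372 TPM in knockout 1 to 5, against 5568, 1539, 2729, 474 and 1202 TPM in wild-type 1 to 5. The knockout libraries lay within the wild-type range, which was much the broader, with wild-type 1 highest and wild-type 4 lowest of all 10. The means were 1581 ± 478 TPM in knockout and 2302 ± 1999 TPM in wild-type (SD, n = 5 each), the log2 difference was -0.13 (SE 0.59, 95% interval -1.37 to 1.11) and the exact permutation test gave p = 0.841.

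Nefh, the heavy subunit, was present at a far lower level than the other subunits and varied most of the 10 genes. It was at 15.1, 61.5, 5.61, 9.62 and 159 TPM in knockout 1 to 5 and at 99.0, 41.6, 91.9, 3.09 and 22.7 TPM in wild-type 1 to 5. High and low libraries occurred in both genotypes. Knockout averaged 50.2 ± 65.0 TPM and wild-type 51.7 ± 42.3 TPM (SD, n = 5 each). The log2 difference was -0.35 (SE 0.96, 95% interval -2.35 to 1.64; exact permutation p = 0.802). Nefl exceeded Nefh by 41.2 to 16828 times in knockout and 171 to 2762 times in wild-type libraries.

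Ina, alpha-internexin, had the smallest exact p of the 10 and the tightest knockout values. It was at 874, 788, 762, 688 and 542 TPM in knockout 1 to 5, against 1007, 1057, 967, 2749.8 and 579 TPM in wild-type 1 to 5. As many as 4 wild-type libraries were above all 5 knockout libraries, and wild-type 5, one of the 3 libraries apart, was below 4 of them. The means were 731 ± 125 TPM in knockout and 1272 ± 848 TPM in wild-type (SD, n = 5 each). The log2 difference was -0.61 (SE 0.51, 95% interval -1.68 to 0.45) with an exact permutation p = 0.119, and without wild-type 4 it was -0.28.

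The proportions of the subunits were compared within each library, since a filament is built from several of them. Nefl made up 82.4 ± 11% of the summed TPM of Nefl, Nefm, Nefh, Ina and Prph in knockout and 75.8 ± 4.91% in wild-type (SD, n = 5 each), and Nefm 11.8 ± 8.55% in knockout and 13.9 ± 6.95% in wild-type. Ina made up 4.94 ± 2.65% in knockout and 9.93 ± 8.0% in wild-type, and Nefh 0.444 ± 0.686% in knockout and 0.309 ± 0.169% in wild-type. The exact permutation tests gave p = 0.286 for Nefl, 0.659 for Nefm, 0.238 for Ina and 0.921 for Nefh. These were 4 of 8 shares tested within gene families, of which 7 are given, and none of the 7 passed after Benjamini-Hochberg adjustment over the 8.

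By library the Nefl share was 80.7%, 86.9%, 98.0%, 78.5% and 68.1% in knockout 1 to 5 and 72.1%, 73.0%, 83.5%, 72.6% and 78.1% in wild-type 1 to 5. The extremes were both knockout libraries. Knockout 3, with the very high Nefl, had a Nefl to Nefm ratio of 78.8, while the other 4 knockout libraries had ratios of 2.77 to 10.4 and the wild-type libraries ratios of 3.10 to 18.0. The highest wild-type ratio and the highest Ina share, 23.4%, were both in wild-type 4. Prph, peripherin, was listed at 0 in 6 libraries and made up 1.64% of the family in knockout 4, its highest share.

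**Figure D3:**
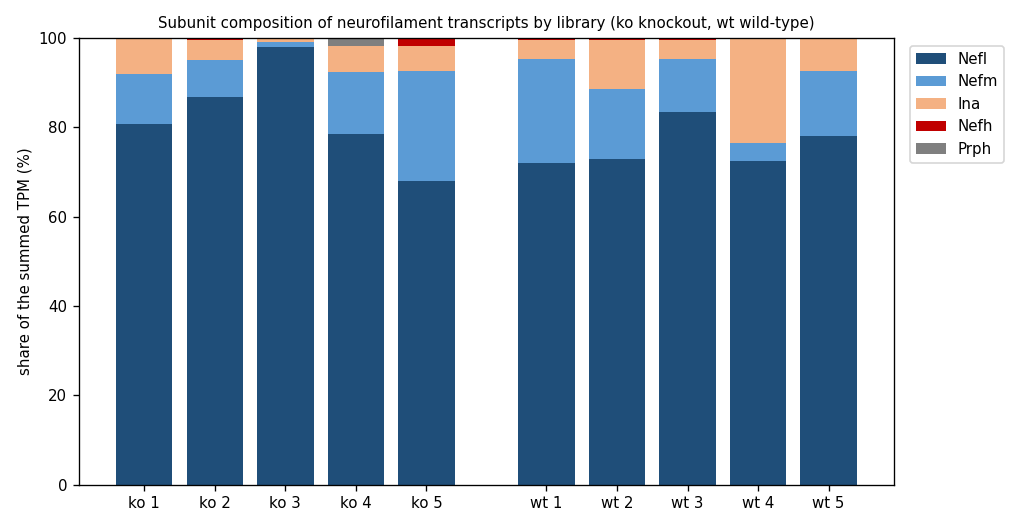
Share of the summed TPM of Nefl, Nefm, Ina, Nefh and Prph taken by each (vertical axis, percent) in knockout 1 to 5 at left and wild-type 1 to 5 at right. Nefl takes 68.1% or more everywhere and 98.0% in knockout 3; Ina takes 23.4% in wild-type 4.

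Sncg, gamma-synuclein, a small soluble protein of axons and terminals, was at 734, 905, 838, 3088 and 1093 TPM in knockout 1 to 5 and at 1009.9, 2176, 1189.9, 1943 and 3953 TPM in wild-type 1 to 5. In 3 knockout libraries it was below every wild-type library. The highest library of each genotype, knockout 4 and wild-type 5, was one of the 3 libraries apart. Knockout averaged 1332 ± 991 TPM and wild-type 2054 ± 1169 TPM (SD, n = 5 each). The log2 difference was -0.68 (SE 0.55, 95% interval -1.83 to 0.47) with an exact permutation p = 0.230.

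Thy1, a GPI-anchored glycoprotein of the neuronal surface and a long-used ganglion cell marker, was at 705, 898, 880.2, 2105 and 1397 TPM in knockout 1 to 5. In wild-type 1 to 5 it was at 952, 1329, 1203, 1235 and 1969 TPM. Knockout 1, 2 and 3 lay under the whole wild-type range and knockout 4 above it. The means were 1197 ± 569 TPM in knockout and 1338 ± 379 TPM in wild-type (SD, n = 5 each), with a log2 difference of -0.23 (SE 0.49, 95% interval -1.26 to 0.79) and an exact permutation p = 0.492. Its standard error was the smallest of the 10.

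Rbpms, the RNA-binding protein widely used to count ganglion cells, was at 2978, 973, 697, 884 and 491 TPM in knockout 1 to 5, against 1672, 1380.04, 952, 1767 and 374 TPM in wild-type 1 to 5. Knockout 1 was highest and wild-type 5 lowest of all 10. Rbpms averaged 1204 ± 1008 TPM in knockout and 1229 ± 574 TPM in wild-type (SD, n = 5 each; log2 difference -0.15, SE 0.59, 95% interval -1.37 to 1.08; exact permutation p = 0.817).

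Its paralog Rbpms2, also expressed by ganglion cells, was at 224, 515, 230.4, 918 and 513 TPM in knockout 1 to 5 and at 370.5, 310.3, 396, 442 and 414 TPM in wild-type 1 to 5. The wild-type libraries lay close together, and the knockout libraries fell on both sides of them, 2 below and 3 above. Means were 480.1 ± 284 TPM in knockout and 387 ± 49.9 TPM in wild-type (SD, n = 5 each), and the log2 difference was 0.12 (SE 0.52, 95% interval -0.98 to 1.21; exact permutation p = 0.802). Rbpms was 66.3 ± 18.7% of the pair in knockout and 72.3 ± 14.6% in wild-type (exact permutation p = 0.587). In the 3 libraries apart the paralogs were nearly equal, with a Rbpms share of 47.5% to 49.1%.

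Slc17a6, the vesicular glutamate transporter VGLUT2 that ganglion cells use to load synaptic vesicles, was at 579, 565, 176, 96.7 and 55.2 TPM in knockout 1 to 5 and at 726, 469, 662, 237 and 67.8 TPM in wild-type 1 to 5. The lowest 3 values were the 3 libraries apart, whatever the genotype. Knockout averaged 294 ± 257 TPM and wild-type 433 ± 279 TPM (SD, n = 5 each), with a log2 difference of -0.71 (SE 0.75, 95% interval -2.27 to 0.86; exact permutation p = 0.437). Without the 3 libraries apart the difference was -0.32.

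Of the 3 vesicular glutamate transporters Slc17a6 was by far the main one, at 96.0 ± 2.47% of their summed TPM in knockout and 90.7 ± 10.5% in wild-type (SD, n = 5 each; exact permutation p = 0.341). Its share was 92.7% or more in 9 of the 10 libraries. The exception was wild-type 4, where it was 72.3% and where Slc17a7 (VGLUT1, the transporter of photoreceptors and bipolar cells) was at 90.3 TPM, against at most 10.01 TPM elsewhere. In that library 11 bipolar cell markers summed to 235 TPM, against 107 to 354 TPM in knockout and 169 to 348 TPM in the other wild-type libraries. The 14 rod markers summed to 493 TPM there, against 16.5, 24.5, 16.6 and 604 TPM in wild-type 1, 2, 3 and 5. In knockout 1 to 5 they summed to 306, 66.9, 527, 488 and 35.5 TPM, with Slc17a7 at most at 8.18 TPM. The part of bipolar cells and rods in the share was not tested.

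Jam2, junctional adhesion molecule B, was the lowest of the 10. It was at 26.0, 9.21, 19.4, 9.21 and 4.51 TPM in knockout 1 to 5, against 58.3, 26.4, 32.0, 18.3 and 7.07 TPM in wild-type 1 to 5. In 3 wild-type libraries it was above all knockout libraries, and knockout 5 was the lowest of all 10. Means were 13.7 ± 8.78 TPM in knockout and 28.4 ± 19.2 TPM in wild-type (SD, n = 5 each). The log2 difference of -0.94 (SE 0.74, 95% interval -2.49 to 0.60) was the most negative of the 10, with an exact permutation p = 0.190.

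Jam2 is also made by vascular cells, whose markers were low and uneven. The summed TPM of 11 endothelial and pericyte genes was 1.33, 7.71, 1.75, 1.2 and 2.35 in knockout 1 to 5 and 61.5, 53.0, 10.6, 31.2 and 5.84 in wild-type 1 to 5. Only 1 of the 11, the pericyte gene Rgs5, passed the filter on low values. Its log2 difference was -2.86, with an unadjusted p under 0.05 in limma, and it was not called after adjustment. Knockout libraries held at most 1.59 TPM of Rgs5, against levels of 38.6, 42.9, 0, 23.8 and 3.18 TPM across wild-type 1 to 5, while the sum of wild-type 3 was mostly Esam (7.94 TPM). Of the endothelial genes, Cdh5 was at most 0.08 TPM in any library and Cldn5 was listed at 0 in all but wild-type 1, where it was at 4.22 TPM. Pecam1 was at 4.03 TPM in knockout 2 and 10.8 TPM in wild-type 1, its highest library of each genotype. Wild-type 1 held both the highest Jam2 and the highest vascular sum. In knockout the highest vascular sum was in knockout 2, with Jam2 at 9.21 TPM, and the highest Jam2 in knockout 1, at 26.0 TPM with a sum of 1.33. The part of these cells in the Jam2 values was not tested. Among the junctional adhesion molecules F11r, Jam2 and Jam3, Jam2 took 52.8 ± 28.4% in knockout and 62.0 ± 20.1% in wild-type (exact permutation p = 0.571).

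**Figure D4:**
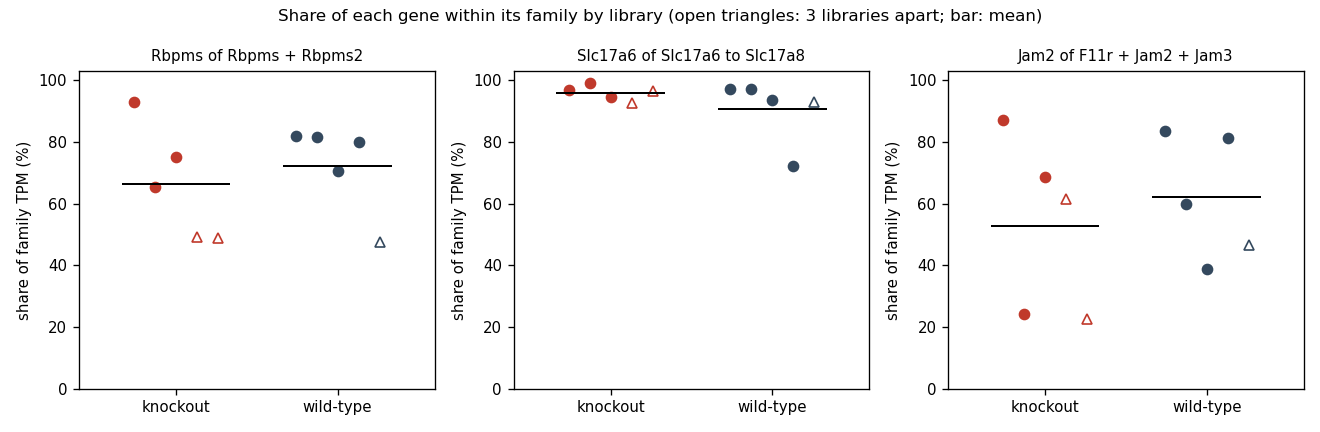
Share of a gene in the summed TPM of its family (vertical axis, percent) for Rbpms, Slc17a6 and Jam2, with the 5 knockout libraries left of the 5 wild-type libraries, open triangles for the 3 libraries apart and bars at the means. The Rbpms share is 47.5% to 49.1% in all 3 open triangles; Slc17a6 is at 72.3% in wild-type 4.

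Several of the 10 genes differed between the 3 libraries apart and the rest. In the 3 libraries apart Slc17a6 was at 55.2 to 96.7 TPM, against 176 to 726 TPM in the other 7, and Ina was at 542 to 688 TPM, against 762 to 2749.8 TPM. Thy1 went the other way, at 1397 to 2105 TPM in the 3 and 705 to 1329 TPM in the 7. Jam2 was at 4.51 to 9.208 TPM in the 3 and at 9.209 to 58.3 TPM in the 7, a very narrow gap. In Slc17a6, Ina, Thy1 and Jam2 the libraries thus did not overlap, which was also so for 23.8% of all tested genes. As mean log2 differences, the 3 libraries minus the other 7, the genes were at -2.60 (Slc17a6), -1.69 (Jam2), -1.30 (Rbpms), -1.13 (Nefl), -0.82 (Ina), 0.08 (Nefm), 0.34 (Nefh), 0.77 (Rbpms2), 0.83 (Thy1) and 1.03 (Sncg). These are descriptions with no test, because all genes entered the component that set the libraries apart.

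The order was also set beside transcript length. The longest annotated coding transcripts of the 3 genes with the most positive values are the shortest of the 10, at 852 bases for Sncg, 1735 for Thy1 and 1987 for Rbpms2, and the 2 longest, Slc17a6 at 4137 and Jam2 at 4370 bases, have the most negative values. Nefm (3680 bases), Nefh (3994 bases) and Rbpms (2547 bases) did not follow that order. Jam2 and Rbpms also have shorter coding transcripts, of 1214 and 1039 bases for the ones with the longest coding sequence, and with those lengths both would go against the order. Over all tested genes with an annotated length (99.1%), the same difference had a median of 0.21 for 2727 genes under 2000 bases, -0.74 for 4594 genes of 2000 to 4000 bases and -1.40 for 4316 genes of 4000 bases or more. The part of length in the values was not tested.

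**Figure D5:**
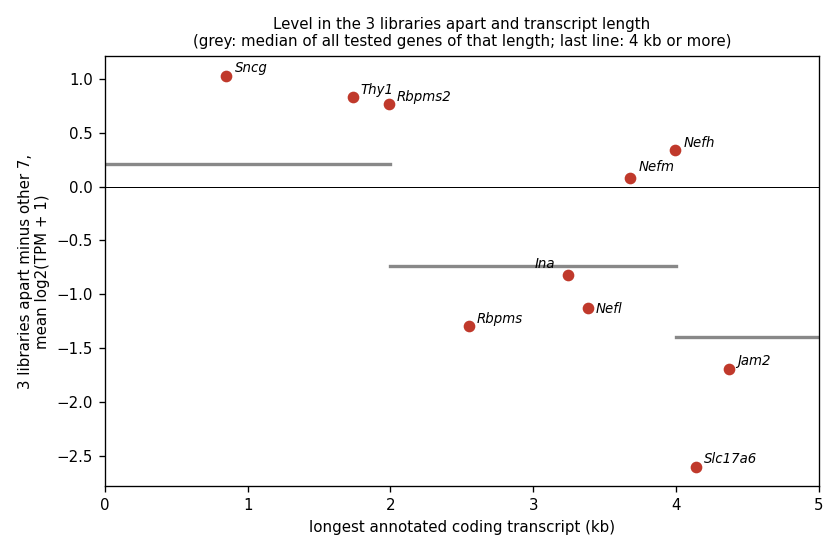
Mean log2(TPM + 1) in knockout 4, knockout 5 and wild-type 5 minus that in the other 7 libraries (vertical axis) against the longest annotated coding transcript in kb (horizontal axis) for the 10 genes. Grey lines are medians of all tested genes in 3 length classes, 0.21, -0.74 and -1.40; Sncg, Thy1 and Rbpms2 are short and positive, Slc17a6 and Jam2 long and negative, and Nefm and Nefh long and above 0.

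With those 3 libraries left out or entered as a term, no gene of the 10 passed the test in limma either. Sncg had differences of -0.87 and -0.93 in those 2 fits, and Ina had -0.68 and -0.47. For Sncg the unadjusted limma p was 0.0804 without the 3 libraries and 0.0330 with the term, where its adjusted p was 0.9998. In the fit with the term 499 of 11744 tested genes had an unadjusted p under 0.05. Rbpms2 took the opposite sign, at -0.33 and -0.04, and Rbpms was at -0.15 without the 3 libraries and 0.12 with the term. Single libraries also moved the estimates. With each left out in turn the difference ran from -1.27 to -0.25 for Slc17a6, from -1.04 to -0.40 for Sncg, from -0.47 to -0.07 for Thy1, from -1.34 to -0.62 for Jam2 and from -0.85 to -0.28 for Ina.

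How alike the 10 genes were to each other and to other genes was measured as the root mean square difference of centred log2(TPM + 1) over the 10 libraries, where 0 is an identical pattern, among 10628 genes with usable symbols. Thy1 and Rbpms2 (0.41), Thy1 and Sncg (0.41), and Rbpms and Ina (0.67) were the closest pairs of members, and Thy1 was the fifth nearest of all genes to Sncg. Nefl and Nefm were not close, at 1.34, against a median over all searched genes of 1.36 from Nefm and 1.50 from Nefl. Nefh was 1.13 from Nefm, at place 50 among the searched genes, and 1.73 to 2.22 from the other 8 (median over all searched genes 2.02).

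The nearest other genes differed between the members. Nefl was nearest to Basp1 (0.44), a membrane-bound growth cone protein that stood at 18753 TPM in knockout 3 and at 993 to 3181 TPM in the other 9 libraries, and then to Sh3yl1 (0.45) and Dusp16 (0.48), which were also highest in knockout 3. Kcnt1 (0.41) and Mnat1 (0.42) were among the nearest to Nefm, and Nefh, with no close match, was nearest to Fam173b (0.68), Ndufa6 (0.74) and Rfc3 (0.77). Ina was nearest to the prohormone convertase Pcsk1 (0.24), Pld3 (0.27) and Abt1 (0.27), and Sncg to Tapbpl (0.26), Atp9a (0.35) and Ftsj1 (0.40). Thy1 was nearest to the ribosomal protein gene Rpl37a (0.30), Uchl1 (0.30), a neuronal deubiquitinase, and Darc (0.32). Rbpms2 was nearest to the glycolytic enzyme gene Gapdh (0.30), Nptxr (0.31) and Cobra1 (0.32), and Rbpms to Zfp318 (0.29), Cdk16 (0.32) and Odz4 (0.32). Slc17a6 was nearest to Tlk1 (0.18), Plaa (0.21) and Odz3 (0.23), and Jam2 to Usp32 (0.19), the sodium channel gene Scn8a (0.24) and Sgms1 (0.30).

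Genes that work with the 10 were then counted in lists, and in each list given here 0 genes passed the limma test after adjustment over all tested genes. Some lists, among them those of intermediate filaments, vesicular glutamate transporters and GPI-anchored genes, also hold genes of the 10. Their counts and medians partly repeat the values above. Of 9 tested intermediate filament genes, 6 were higher and 3 lower in knockout (median 0.20, against -0.31 for all tested genes). After median centring 8 were higher and 1 lower (median 0.58, against 0.07 for all tested genes), and under quantile normalization 6 and 3 (median 0.48, against -0.04). Vim, the filament of glia and progenitors, was at 2118 TPM in knockout 5 and 7.63 to 71.7 TPM in the other 4 knockout libraries, against 8.27 to 56.2 TPM in wild-type (log2 difference 1.89, SE 1.07). In knockout 5 the 11 Muller glia markers, a list that holds Vim, summed to 7882 TPM, of which the lipoprotein gene Apoe gave 5651 and Vim 2118, against 209 to 1228 TPM in the other knockout and 402 to 658 TPM in the wild-type libraries. Other genes of the list did not share this: Slc1a3, Rlbp1, Sox9 and Hes1 were listed at 0 in knockout 5, and Dkk3 (31.3 TPM) and Clu (19.0 TPM) were at their lowest there. The 11 microglia and macrophage genes also had their highest sum in knockout 5, 3101 TPM. They summed to 2691 TPM in knockout 2, where Vim was at 18.5 TPM. The part of glia or of macrophages in the Vim values was not tested. The nuclear lamin Lmna was at 2.48 to 65.6 TPM in knockout and 2.15 to 10.3 TPM in wild-type (1.19, SE 0.84), also highest in knockout 5.

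Of 16 genes for the transport, linking and turnover of neurofilament, 8 were higher and 8 lower (median -0.05). The counts were 11 and 5 after median centring, and 8 and 8 under quantile normalization. The chaperone cofactor Bag5 was at 16.1 ± 9.72 TPM in knockout and 39.9 ± 28.2 TPM in wild-type (log2 difference -1.34, SE 0.79), the cytolinker Dst at 71.6 ± 36.5 TPM in knockout and 168 ± 119.7 TPM in wild-type (-0.94, SE 0.65) and the ubiquitin ligase Trim2, which acts on Nefl, at 66.1 ± 44.3 TPM in knockout and 109.7 ± 63.7 TPM in wild-type (-0.71, SE 0.70; SD, n = 5 each). None of these 3, the ones with the smallest p in the list, had an unadjusted p under 0.05.

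All 12 genes of the spectrin and ankyrin scaffold under the axonal membrane were lower in knockout (median -0.48), but 5 of them lay above the median of all tested genes, and 5 were higher and 7 lower after median centring, and 2 and 10 under quantile normalization. Ank2, which links spectrin to membrane proteins along the axon, was at 457 ± 255 TPM in knockout and 817 ± 466 TPM in wild-type (-0.79, SE 0.58). Ank3, the ankyrin of the axon initial segment, was at 170.3 ± 159 TPM in knockout and 262 ± 168 TPM in wild-type (-0.85, SE 0.77), and the adhesion molecule L1cam at 850.3 ± 205 TPM in knockout and 1319 ± 486 TPM in wild-type (-0.57, SE 0.49; SD, n = 5 each).

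Among 18 microtubule genes 7 were higher and 11 lower (median -0.15), against 11 and 7 after median centring, and 5 and 13 under quantile normalization. The alpha-tubulin Tuba1a was the only one with an unadjusted p under 0.05 in limma. It was listed at 0 in knockout 4 and knockout 5 and at 11923 to 15605 TPM in the other knockout libraries. It was at 10704 to 25569 TPM in wild-type 1 to 4 and at 159316 TPM in wild-type 5, so its extremes were the libraries apart on the first component. A listed 0 for so abundant a gene can be a failed estimate, so no fold is given. Tuba4a was at 38.1 ± 17.8 TPM in knockout and 85.8 ± 29 TPM in wild-type (-1.2, SE 0.58), and the microtubule-associated protein gene Mtap1a at 61.8 ± 28.0 TPM in knockout and 153 ± 98.7 TPM in wild-type (-1.23, SE 0.60; SD, n = 5 each). Their unadjusted limma p was 0.0524 and 0.0549. The exact permutation test, also unadjusted, gave p = 0.0159 for Tuba4a, 0.0317 for Mtap1a and 0.111 for Tuba1a.

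The remaining lists were counted in the same way. In knockout, 0 of 3 vesicular glutamate transporters were higher and 3 lower, and their median, -0.71, was the value of Slc17a6 itself. Of 10 junctional adhesion molecules and partners, 3 were higher and 7 lower (median -0.74). These counts did not move with median centring. Pard6a, a polarity protein, was at 1.03 to 262 TPM in knockout and 2.95 to 45.2 TPM in wild-type (1.62, SE 1.12), and Mllt4 (afadin) at 25.2 ± 20.6 TPM in knockout and 53.8 ± 35.7 TPM in wild-type (-1.01, SE 0.75).

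Of 15 Ly6 and GPI-anchored surface genes, 5 were higher and 10 lower (median -0.44), against 7 and 8 after median centring and 5 and 10 under quantile normalization. Lynx1, a Ly6 protein that damps nicotinic receptors, was at 218, 54.5, 52.7, 47.4 and 16.8 TPM in knockout 1 to 5, against 188, 169, 267, 189 and 52.0 TPM in wild-type 1 to 5 (-1.45, SE 0.68). It was the only gene of that list with an unadjusted p under 0.05 in limma, where its adjusted p was 0.992. The exact permutation test gave p = 0.127 for it. Of 16 neuronal RNA-binding proteins 3 were higher and 13 lower (median -0.38), against 8 and 8 after median centring and 6 and 10 under quantile normalization, with the splicing regulator Rbfox1 at 61.4 ± 34.5 TPM in knockout and 131 ± 68.7 TPM in wild-type (-1.09, SE 0.65). Of 20 other pan-ganglion cell markers 4 were higher and 16 lower (median -0.41), against 8 and 12 after median centring and 5 and 15 under quantile normalization. Of these, the sodium channel gene Scn1a was at 15.5 ± 11.4 TPM in knockout and 36.8 ± 26.3 TPM in wild-type (-1.13, SE 0.78; SD, n = 5 each).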

How the data were processed

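RNA was measured in 10 libraries, 5 Satb1 knockout and 5 wild-type, grouped by the labels. The authors deposited log10(TPM + 1) values, 1 column per library. The submitters' processing notes name TopHat2 2.0.10, Cufflinks and mm10; gene annotation, strand use and filters: not given in the sources used here. Per the labels' protocols the cDNA was amplified, which can make levels depend on transcript length. Values were turned back to TPM, and each library then summed to 1000000. Of 23746 entries, 26 that carried a number and no symbol were dropped (between 0.0438% and 0.198% of library TPM) and 240 repeated symbols were summed.

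Differences are knockout minus wild-type in log2(TPM + 1), with a pseudocount of 1 TPM that understates changes of low genes, fitted with limma 3.58.1 in R 4.3.3 (genotype only, mean-variance trend) on 11744 genes with Benjamini-Hochberg adjustment and a threshold of 0.05. Single values and 8 within-family shares had two-sided exact permutation tests over all divisions of the libraries into 5 and 5, whose smallest p is 0.00794. Replicates were described as biological and from different litters, in the series' design text. Depth is unknown, so no counting interval was given.

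The members, the lists and the tests were chosen with earlier results of these data known. Genes named beside the 10 are their family members, up to 3 genes with the smallest p of each list, and the 3 nearest genes of each member; a few of these results, 1 share and 1 list are not reported here. Gene and transcript positions are from GENCODE on GRCm38. Alternatives covered the pseudocount, filter, scaling, replicate block, weights, variance model and each library left out. Fits without 3 libraries that stood apart, or with them as a term, were added after seeing the data.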

Additional observations from a re-analysis of the deposited data

Results flagged for a closer look

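There were 3 values that lay far from the rest of their group of 5, out of 36 group values examined, where chance alone gives about 1 in 20. The gap of the extreme library to its nearest neighbour, as a part of the group's whole range, was 0.7231 on the log2(TPM + 1) scale for the Sncg level in knockout 4 (3088 TPM, against 734 to 1093 TPM in the other knockout libraries). It was 0.7943 for the Nefh share of neurofilament transcripts in knockout 5 (1.65%, against at most 0.344% in the other knockout libraries). It was 0.8313 for the Slc17a6 share of vesicular glutamate transporters in wild-type 4 (72.3%, against 93.1% or more in the other wild-type libraries). Knockout 4 and knockout 5 belong to the 3 libraries apart on the first component, and wild-type 4 was the library apart on the second.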

How the results depend on the processing

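Over 22 alternatives for each of the 10 genes, 0 of 220 values passed the threshold (lowest adjusted p 0.645 in limma) and 17 took the opposite sign. With median centring these were Nefm 0.24, Nefh 0.0216, Thy1 0.14 and Rbpms 0.23. With 1 library left out the range was -0.14 to 0.82 for Nefl (sign turned without knockout 3), -0.59 to 0.30 for Nefm (wild-type 1 or 3), -1.11 to 0.14 for Nefh (knockout 3, wild-type 1 or 3), -0.55 to 0.10 for Rbpms (knockout 5, wild-type 1 or 4) and -0.17 to 0.34 for Rbpms2 (knockout 4). Without the 3 libraries apart Rbpms2 was -0.33, and with them as a term Rbpms was 0.12 and Rbpms2 -0.0376. The cause was not tested. Among the shares, the Nefm difference ran from -5.25 to 0.588 points with 1 library left out (sign turned without knockout 3 or wild-type 1), and the Nefh difference from -0.166 (without knockout 5) to 0.245 points, and was -0.154 points without the 3 libraries apart and -0.76 as a log2 ratio to the rest of the family. Same-numbered libraries deviated together in some cases only (correlations across genes from -0.0320 to 0.364), and no label ties the numbers across genotypes, so they were not taken as pairs. With the replicate block 830 genes had an unadjusted p under 0.05, against 389 without it, 0 of the 10 were called and no call on the 7 shares changed. Not every library correlated best with its own number. Depth is unknown and limits what can be said of Nefh and Jam2, the lowest genes.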
